A study of Mus musculus with 60 samples.

Results

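Valemetostat was compared with tazemetostat in CH12F3 cells that lack DNA ligase 4 (Lig4-KO), by mapping where a broken chromosome end was joined. The comparison takes the libraries whose labels give this genotype and either compound, which are 10 of the 60 libraries of the series, 5 with each compound, and 465397 of its 1219247 junctions. A further 5 Lig4-KO libraries with the solvent DMSO (203677 junctions) are given beside them. All 15 came from 1 sequencing run.

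CH12F3 cells are B-lymphoma cells of the mouse that, once stimulated, change from IgM to IgA. Every group here had the same genotype (Ligase4 KO) and the same stimulation, anti-CD40 with IL-4 and TGF-β for 72 h, so the DMSO group also lacked the ligase and was also stimulated. The groups differed in the added agent, which was DMSO, Tazemetostat or Valemetostat as the labels spell them. Doses and the time at which the compounds were added are not in the labels, so a difference between the compounds and a difference in dose cannot be told apart. The labels do not say whether the knockout line is 1 clone or whether each replicate had a culture of its own, so every p-value rests on a spread between libraries that may be technical. Junction lists hold no expression values, so cell type markers could not be looked at. The labelled B-cell origin was checked only by the junctions in the switch regions of the antibody heavy chain locus.

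LAM-HTGTS, a translocation sequencing method built on linear amplification, starts from a fixed break, the bait, and reads out the sequences to which that end was joined. During class switching, activation-induced cytidine deaminase (AID) attacks the switch regions that lie before the constant genes of the immunoglobulin heavy chain locus (Igh), and the resulting breaks in the mu region and in a downstream region are joined to each other. DNA ligase 4 seals breaks in classical end joining, and without it cells use alternative end joining. EZH2 and its relative EZH1 are the catalytic subunits of Polycomb repressive complex 2, which methylates histone H3 at lysine 27 and keeps silent genes silent. Tazemetostat is an inhibitor of EZH2, and valemetostat inhibits EZH1 as well as EZH2. Both compete with the methyl donor S-adenosylmethionine.

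AID also attacks genes outside the immunoglobulin loci, mostly near their starts. The stretches around the starts of the 3 such genes with the most junctions here are shown to give a view of the kind of DNA concerned. They are RefSeq sequences of the GRCm38.p6 build, from 250 bases before to 50 after the start of each gene, written 5′ to 3′ along the gene. Capitals mark AGCT, the palindromic form of the short motif at which AID acts most readily.
Pim1 promoter, chr17:29490535-29490834, plus strand: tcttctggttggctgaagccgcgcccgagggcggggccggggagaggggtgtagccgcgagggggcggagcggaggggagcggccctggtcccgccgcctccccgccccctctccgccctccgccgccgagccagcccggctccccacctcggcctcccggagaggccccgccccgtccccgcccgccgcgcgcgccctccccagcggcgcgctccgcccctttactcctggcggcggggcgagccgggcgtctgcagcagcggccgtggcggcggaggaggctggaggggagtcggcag
Nfkbia promoter, chr12:55492598-55492897, minus strand: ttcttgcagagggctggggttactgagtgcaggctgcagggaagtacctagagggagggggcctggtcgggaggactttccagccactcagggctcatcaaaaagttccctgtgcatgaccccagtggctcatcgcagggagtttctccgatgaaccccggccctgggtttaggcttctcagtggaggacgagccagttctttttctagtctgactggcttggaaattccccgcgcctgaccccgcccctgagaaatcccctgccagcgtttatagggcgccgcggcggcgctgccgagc
Zfp36l1 promoter, chr12:80112964-80113263, minus strand: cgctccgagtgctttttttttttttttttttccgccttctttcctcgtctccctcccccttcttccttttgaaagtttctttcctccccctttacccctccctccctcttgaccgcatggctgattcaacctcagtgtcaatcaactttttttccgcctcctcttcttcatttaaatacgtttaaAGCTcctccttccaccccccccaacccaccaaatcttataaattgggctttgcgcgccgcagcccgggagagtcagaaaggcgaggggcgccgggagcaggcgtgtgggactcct
Pim1 encodes a serine/threonine kinase, Nfkbia the inhibitor that holds NF-κB in the cytoplasm, and Zfp36l1 an RNA-binding protein that destabilises mRNAs. Of the 3, the motif stands only in the Zfp36l1 stretch, 1 time, as searched on both strands, which are alike for a palindrome. Over all 32851 promoter stretches of that length, 77.6% hold it at least 1 time. The junctions are on mm9 and were not placed on these sequences.

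Depth was similar in both arms. The tazemetostat libraries held 43773, 44893, 47116, 44605 and 46598 junctions in replicates 1 to 5, and the valemetostat libraries 47418, 49008, 42643, 42443 and 56900. The DMSO libraries held from 35258 to 46561. The bait site was taken as the centre of the 200 bp with the most junctions, 61818800 to 61818999 on chromosome 15 (mm9), and the 1 Mb on each side is called the bait window. Within it, 50.2 to 53.2% of a library's junctions repeated another one at the same position and strand, whereas off the bait chromosome 0 did. Genome-wide junctions are those on other chromosomes and outside the immunoglobulin loci. A share says how a library's junctions were divided, with no count of joins per cell.

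Valemetostat libraries had fewer of their junctions in Igh than tazemetostat libraries. The Igh share of all junctions was 1.08, 1.14, 1.25, 1.13 and 1.26% in tazemetostat replicates 1 to 5, from 474, 514, 589, 502 and 588 junctions. It was 0.945, 1.08, 1.01, 1.02 and 1.05% in valemetostat replicates 1 to 5, from 448, 529, 429, 433 and 598 junctions. All 5 valemetostat libraries lay below all 5 tazemetostat libraries, but the gap between the groups was narrow, with 1.079% in the highest valemetostat and 1.083% in the lowest tazemetostat library. The means were 1.17% ± 0.0791 with tazemetostat and 1.02% ± 0.0508 with valemetostat (SD, n = 5 each), which is 0.870 times as much. The difference was -0.153 percentage points (95% interval -0.256 to -0.0543), and the exact two-sided permutation test gave p = 0.00794, the smallest that 5 against 5 libraries allow, and an adjusted p = 0.0397 over the 5 compartments. With DMSO the share was 1.56% ± 0.0616 (n = 5), so the tazemetostat mean was 0.753 times and the valemetostat mean 0.655 times the DMSO mean, comparisons that share the same DMSO libraries. With identical junctions counted 1 time, which shrinks the bait window, the difference was -0.239 points (exact permutation test, adjusted p = 0.0397). The Igh difference did not pass when taken as a share of the junctions that lay outside the bait window, where it was -0.495 points (exact permutation test, adjusted p = 0.0635), or when tazemetostat replicate 5 or any 1 of the 5 valemetostat libraries was left out, where it ran from -0.168 to -0.131 points (exact permutation test, adjusted p = 0.0794).

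The light chain loci Igk and Igl, which in mature B cells carry rearranged antibody genes but no switch regions, held few junctions. Their joint share was 0.0891, 0.0557, 0.0807, 0.0740 and 0.0880% in tazemetostat replicates 1 to 5 and 0.0590, 0.0408, 0.0586, 0.0683 and 0.0633% in valemetostat replicates 1 to 5. The groups overlapped through tazemetostat replicate 2, which lay below 4 of the valemetostat libraries. The means were 0.0775% ± 0.0136 and 0.0580% ± 0.0104 (n = 5 each), from 176 and 138 junctions, beside 0.106% ± 0.00740 with DMSO. The difference of -0.0195 points (95% interval -0.0365 to -0.00115) did not pass after adjustment (exact permutation test, p = 0.0476, adjusted p = 0.119). Without tazemetostat replicate 2 it was -0.0249 points and passed (exact permutation test, adjusted p = 0.0198). Most of these junctions were in Igk, at 0.0690% ± 0.0138 with tazemetostat and 0.0510% ± 0.0113 with valemetostat. In Igl there were 19 and 17 junctions over 5 libraries each, too few to compare.

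The other compartments did not differ between the compounds beyond the spread of the libraries. The bait window held 64.3% ± 1.81 of junctions with tazemetostat, 63.5% ± 2.59 with valemetostat and 60.8% ± 1.78 with DMSO (n = 5 each). The difference between the compounds was -0.880 points with a 95% interval of -4.94 to 2.49 (exact permutation test, adjusted p = 0.563). The rest of the bait chromosome held 3.11% ± 0.0992, 3.17% ± 0.157 and 3.0% ± 0.219 in the same order, with a difference of 0.0587 points (-0.138 to 0.250). The genome-wide share was 31.3% ± 1.82, 32.3% ± 2.48 and 34.6% ± 1.69, with a difference of 0.993 points (-2.18 to 4.68). The adjusted p was 0.563 for both by the same exact permutation test.

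**Figure D1:**
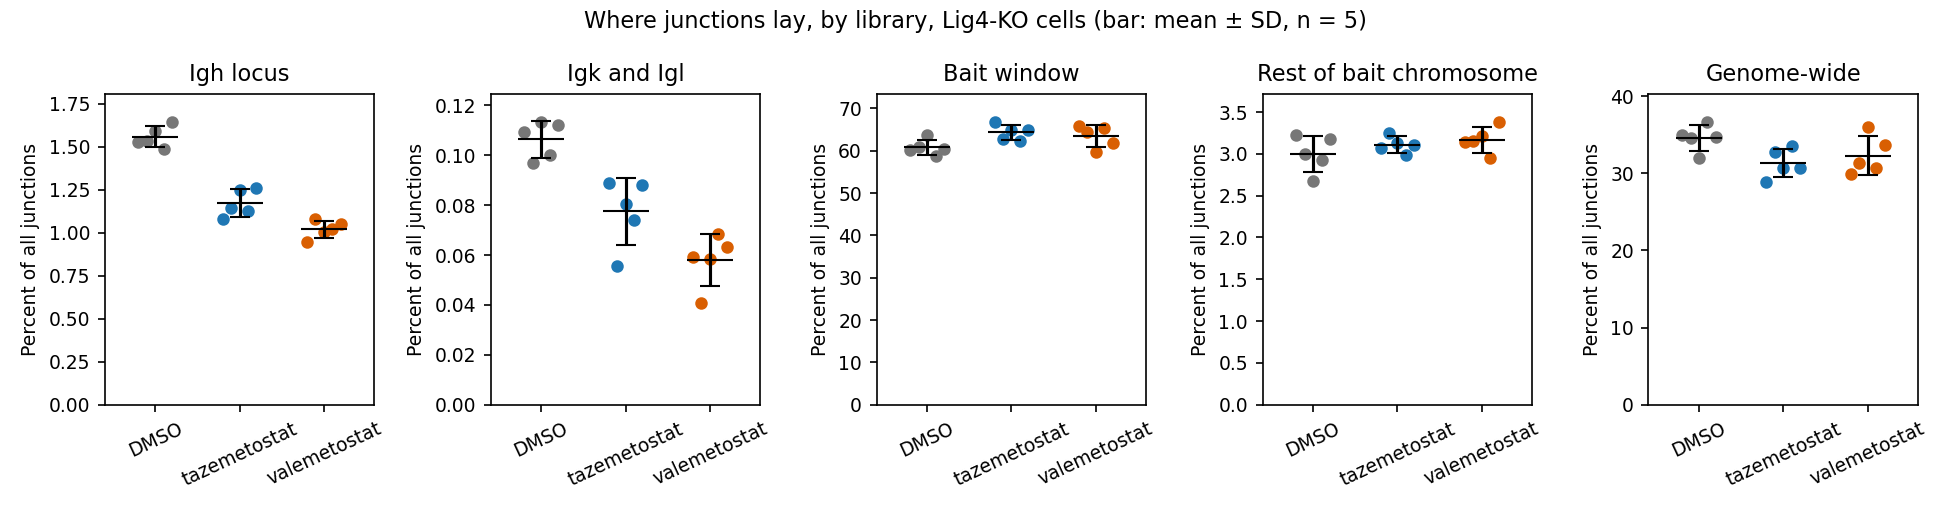
Percent of a library's junctions in Igh, in the light chain loci, in the bait window, on the rest of the bait chromosome and genome-wide (vertical axes, each from 0) for the 15 Lig4-KO libraries by treatment (horizontal axis). Points are libraries and bars give the mean ± SD of 5. In Igh the valemetostat points, 0.945 to 1.08%, all lie below the tazemetostat points, while the groups overlap in the other panels.

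Within Igh the junctions formed a peak at each end of the switching interval. The mu peak, in the switch region that takes part in every switch, had its densest kb at 114663000 on chromosome 12, and the alpha peak, which lies before the IgA constant gene, at 114501000, which is 162 kb away (mm9, starts of the densest 1 kb over all 15 Lig4-KO libraries). Between them stood smaller peaks at 61, 87 and 112 kb from mu, which follow the known gene order gamma3, gamma1, gamma2b and are named so here. The mu and alpha parts were taken as the densest kb with 10 kb on each side, and the gamma parts with 5 kb on each side.

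Counted per 10000 junctions of a library, the alpha and gamma2b parts were lower with valemetostat than with tazemetostat. They were the 2 of 8 parts in which the libraries of the compounds did not overlap. Of the 1465 windows of 1 Mb tested across the genome, 0.819% did not overlap. Windows were counted per 10000 genome-wide junctions, so the counts for parts and for windows are not on the same scale. The alpha part held 54.4, 51.9, 56.9, 55.8 and 59.7 junctions per 10000 in tazemetostat replicates 1 to 5 and 44.9, 45.3, 47.4, 49.9 and 49.0 in valemetostat replicates 1 to 5. The lowest tazemetostat library lay above the highest valemetostat library. The mean of 47.3 ± 2.22 with valemetostat was 0.849 times the 55.7 ± 2.88 with tazemetostat (SD, n = 5 each), a difference of -8.41 (95% interval -12.1 to -4.48, exact permutation test, p = 0.00794, adjusted p = 0.0317 over 8 parts). With DMSO the alpha part held 81.3 ± 5.89 per 10000.

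The gamma2b part, before the constant gene of IgG2b, held more junctions with either compound than with DMSO. It held 8.45, 10.02, 8.28, 8.74 and 10.7 junctions per 10000 in tazemetostat replicates 1 to 5 and 7.17, 7.55, 7.04, 6.13 and 6.68 in valemetostat replicates 1 to 5. With DMSO it held 3.22 to 5.49, so the 3 groups did not overlap, with DMSO lowest, valemetostat between and tazemetostat highest. The valemetostat mean of 6.91 ± 0.539 was 0.748 times the tazemetostat mean of 9.25 ± 1.08 (n = 5 each), a difference of -2.33 (95% interval -3.73 to -1.15, exact permutation test, p = 0.00794, adjusted p = 0.0317). The parts rest on 210 junctions with tazemetostat and 165 with valemetostat. The counting per 10000 junctions was added after values had been seen, and the alpha and gamma2b calls held in 6 of the 10 settings that left out 1 library, with an adjusted p = 0.0635 in the other 4 (exact permutation test). Over 8 parts, 1 part alone at p = 0.00794 (exact permutation test) would not pass, so each of the 2 calls depends on the other.

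In the mu part the groups overlapped. It held 37.7, 41.2, 48.0, 35.9 and 42.1 junctions per 10000 with tazemetostat in replicates 1 to 5, and 32.7, 40.0, 30.3, 36.8 and 38.1 with valemetostat. The means were 41.0 ± 4.66 and 35.6 ± 4.005 (n = 5 each), beside 51.8 ± 4.53 with DMSO, and the difference of -5.40 (95% interval -11.5 to 0.885) did not pass (exact permutation test, p = 0.0952, adjusted p = 0.254). This interval holds a loss in the same proportion as in alpha, so a difference between the parts in their response is not shown. The gamma3 part held 1.93 ± 0.545 and 2.40 ± 0.741 per 10000, and the gamma1 part 2.15 ± 0.487 and 2.25 ± 0.855, with tazemetostat and valemetostat respectively (exact permutation test, adjusted p = 0.587 and 0.833). With DMSO these were 3.45 ± 0.951 and 3.98 ± 1.54. They rest on 44 and 57 junctions for gamma3 and on 49 and 53 for gamma1.

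As percents of the Igh junctions, no part differed past the threshold between the compounds. Here too, 1 part alone at the smallest possible p would not have passed over 8 parts. The mu part made up 34.9% ± 2.49 with tazemetostat and 34.8% ± 2.79 with valemetostat, and the alpha part 47.6% ± 2.26 and 46.4% ± 2.65 (n = 5 each, exact permutation test over 8 parts, adjusted p = 0.960 and 0.838). The 95% intervals of these differences were -4.13 to 3.72 and -5.15 to 2.21 points. With DMSO the values were 33.2% ± 2.50 and 52.2% ± 3.13.

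The gamma parts did not pass in this count either. Gamma2b made up 7.81, 8.75, 6.62, 7.77 and 8.50% of Igh junctions in tazemetostat replicates 1 to 5, and 7.59, 6.99, 6.99, 6.005 and 6.35% in valemetostat replicates 1 to 5, with a difference of -1.10 points (95% interval -2.13 to 0.0782, exact permutation test, p = 0.0635, adjusted p = 0.349). Here the groups overlapped through tazemetostat replicate 3. Gamma3 made up 1.63% ± 0.371 with tazemetostat and 2.36% ± 0.745 with valemetostat, a difference of 0.733 points (-0.190 to 1.57, exact permutation test, p = 0.0873, adjusted p = 0.349). Gamma1 made up 1.83% ± 0.351 and 2.19% ± 0.800 (exact permutation test, adjusted p = 0.714). With DMSO gamma2b made up 2.81% ± 0.452, gamma3 2.21% ± 0.627 and gamma1 2.56% ± 1.01 of the Igh junctions.

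Outside the peaks, the whole stretch between mu and alpha, the gamma peaks included, held 13.8% ± 0.944 of Igh junctions with tazemetostat and 15.2% ± 2.52 with valemetostat. Upstream of mu, towards the variable segments, lay 1.39% ± 0.289 and 1.45% ± 0.352, and downstream of alpha 2.34% ± 0.927 and 2.11% ± 0.722. None of these passed (exact permutation test, adjusted p = 0.714, 0.844 and 0.844). Of the 127 junctions upstream of mu in the 15 libraries, 24 lay within 1 stretch of 20 kb from 116380000 to 116399999, of which 6 were from DMSO, 11 from tazemetostat and 7 from valemetostat libraries. That stretch begins 1.706 Mb from the mu part, and 34 junctions lay between them when those close to the stretch were left out.

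**Figure D2:**
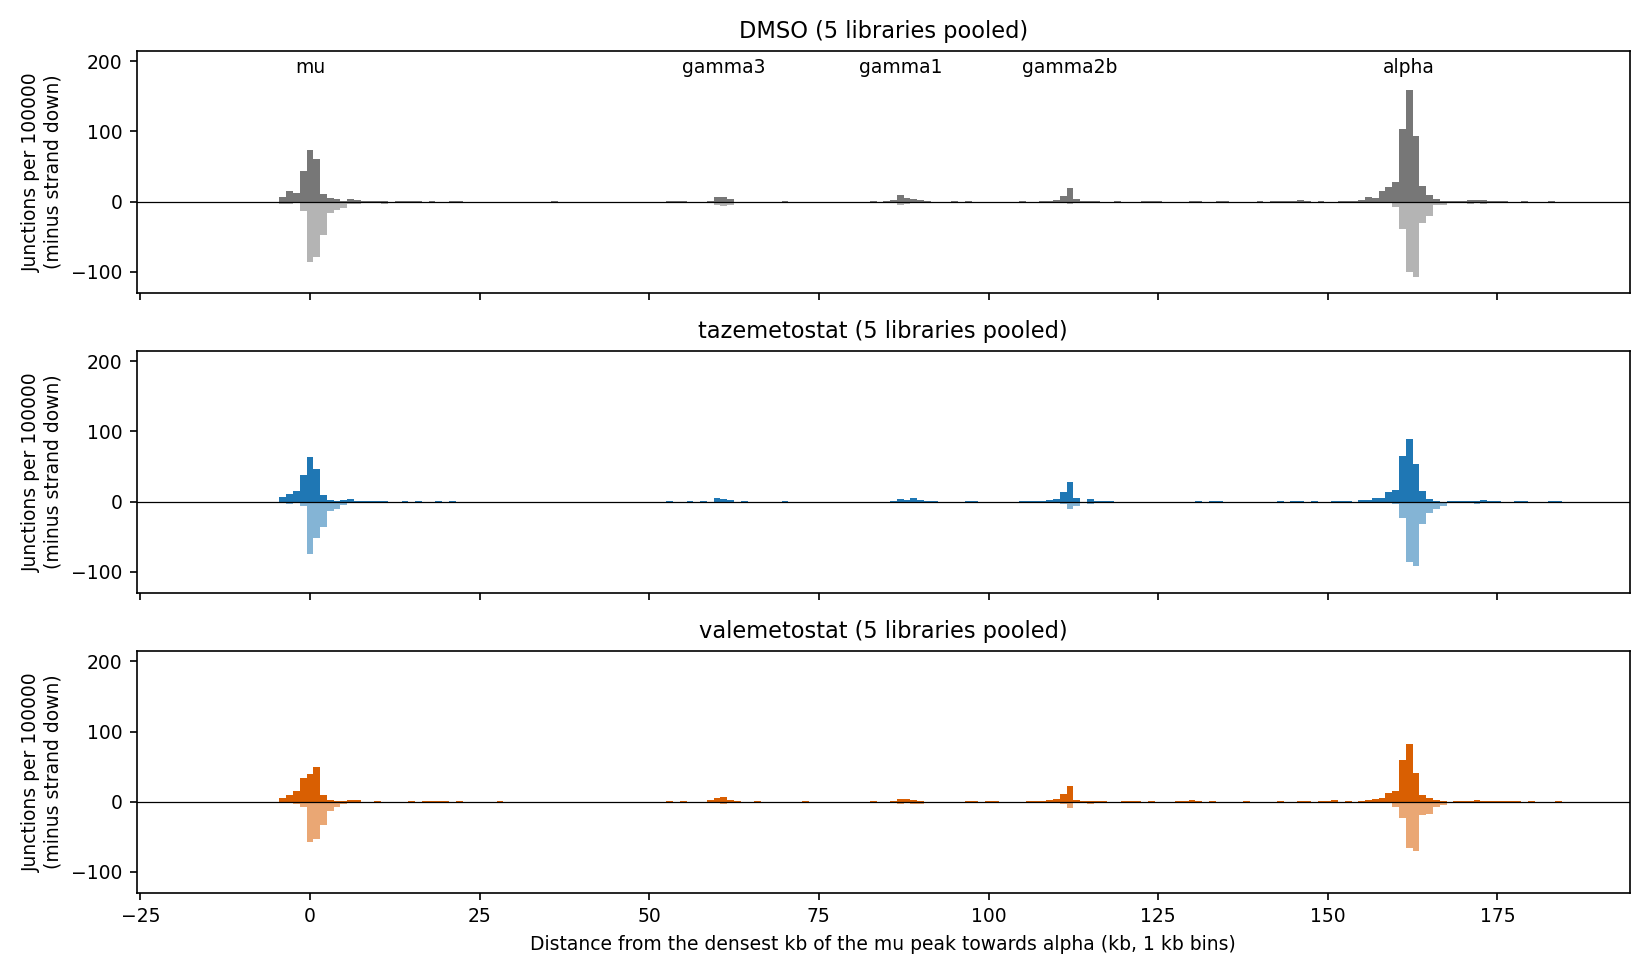
Junctions per 100000 in 1 kb bins (vertical axis, plus strand up and minus strand down) against distance from the densest kb of mu towards alpha in kb (horizontal axis), with the 5 libraries of each treatment pooled. The mu and alpha peaks stand 162 kb apart. The part around alpha holds 47.3 junctions per 10000 with valemetostat and 55.7 with tazemetostat, and the gamma2b part, at 112 kb, is lowest with DMSO.

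Junctions on the plus and minus strands sat side by side within the peaks, with the minus strand on the side of lower coordinates. The distance between the median plus and the median minus position was 1024 bp ± 343 in mu with tazemetostat and 1001 bp ± 411 with valemetostat (n = 5 each). In alpha it was 798 bp ± 83.4 and 815 bp ± 151. Neither differed between the compounds (exact permutation test, adjusted p = 0.929 for both), and the 95% intervals were -599 to 507 bp in mu and -163 to 205 bp in alpha. The measure was chosen after the profile had been seen.

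The share of junctions on the plus strand likewise gave no call. In alpha it was 51.3, 52.8, 50.4, 49.4 and 44.6% in tazemetostat replicates 1 to 5 and 43.7, 51.8, 56.9, 57.1 and 52.0% in valemetostat replicates 1 to 5, a wide scatter in which the groups overlapped. The mean was 49.7% ± 3.10 with tazemetostat, 52.3% ± 5.46 with valemetostat and 59.1% ± 3.21 with DMSO. In mu the means were 49.0% ± 2.20, 46.9% ± 3.42 and 46.3% ± 3.18 in that order. The differences between the compounds were 2.603 points in alpha (95% interval -4.21 to 8.31) and -2.10 points in mu (-6.27 to 2.28), with an adjusted p = 0.575 for both in the exact permutation test over 5 strand shares. In the bait window the plus share was 64.5% ± 0.480 with tazemetostat and 64.6% ± 0.507 with valemetostat, and genome-wide 49.8% ± 0.380 and 49.7% ± 0.220 (exact permutation test, adjusted p = 0.738 and 0.575).

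Around the bait, junctions record how far the broken end was cut back or joined to nearby breaks. The profile was divided by distance from the bait site into near (under 1 kb), middle (1 to 20 kb) and far (20 kb to 1 Mb) classes on the sides of lower and higher coordinates, called below and above. None of the 6 classes differed past the threshold between the compounds. The class with the smallest p was middle below, at 21.7, 21.3, 21.7, 21.0 and 21.3% of the bait window's junctions in tazemetostat replicates 1 to 5 and 22.7, 22.4, 21.5, 21.9 and 21.9% in valemetostat replicates 1 to 5. Valemetostat replicate 3 lay among the tazemetostat libraries and the other 4 above them. The means were 21.4% ± 0.324 and 22.1% ± 0.481, a difference of 0.660 points (95% interval 0.137 to 1.37, exact permutation test, p = 0.0397, adjusted p = 0.206). It passed at 0.437 points with identical junctions counted 1 time and at 0.813 points without valemetostat replicate 3 (exact permutation test, adjusted p = 0.0476 for both). With DMSO the class held 19.8% ± 0.340.

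The near classes were a little smaller with valemetostat and likewise did not pass. Near below held 11.8% ± 0.413 with tazemetostat, 11.1% ± 0.530 with valemetostat and 13.6% ± 0.204 with DMSO, with a difference between the compounds of -0.670 points (-1.44 to 0.144, exact permutation test, p = 0.0714, adjusted p = 0.206). Near above held 22.9% ± 0.962, 22.2% ± 1.23 and 26.3% ± 0.822, and middle above 34.2% ± 0.780, 35.1% ± 0.719 and 33.5% ± 0.485, in the same order (exact permutation test, adjusted p = 0.5 and 0.206). Both compounds' means lay below the DMSO mean in the near classes and above it in the middle classes.

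The far classes were nearly the same with the compounds. Far above held 8.83, 8.84, 8.99, 8.29 and 9.002% in tazemetostat replicates 1 to 5 and 8.76, 9.0, 8.19, 8.13 and 9.25% in valemetostat replicates 1 to 5, against 5.57 to 6.30% with DMSO. All 10 libraries with a compound lay above all 5 DMSO libraries. The means of 8.79% ± 0.289 and 8.67% ± 0.493 differed by -0.124 points (95% interval -0.758 to 0.477, exact permutation test, adjusted p = 0.838). Far below held 0.896% ± 0.0479 and 0.895% ± 0.107, beside 0.781% ± 0.0476 with DMSO, and the difference between the compounds had an interval of -0.123 to 0.132 points (exact permutation test, adjusted p = 1). Identical junctions were common near the bait, at 74.9% under 1 kb and 44.8% from 1 to 20 kb, and rare from 20 kb to 1 Mb, at 0.456%.

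**Figure D3:**
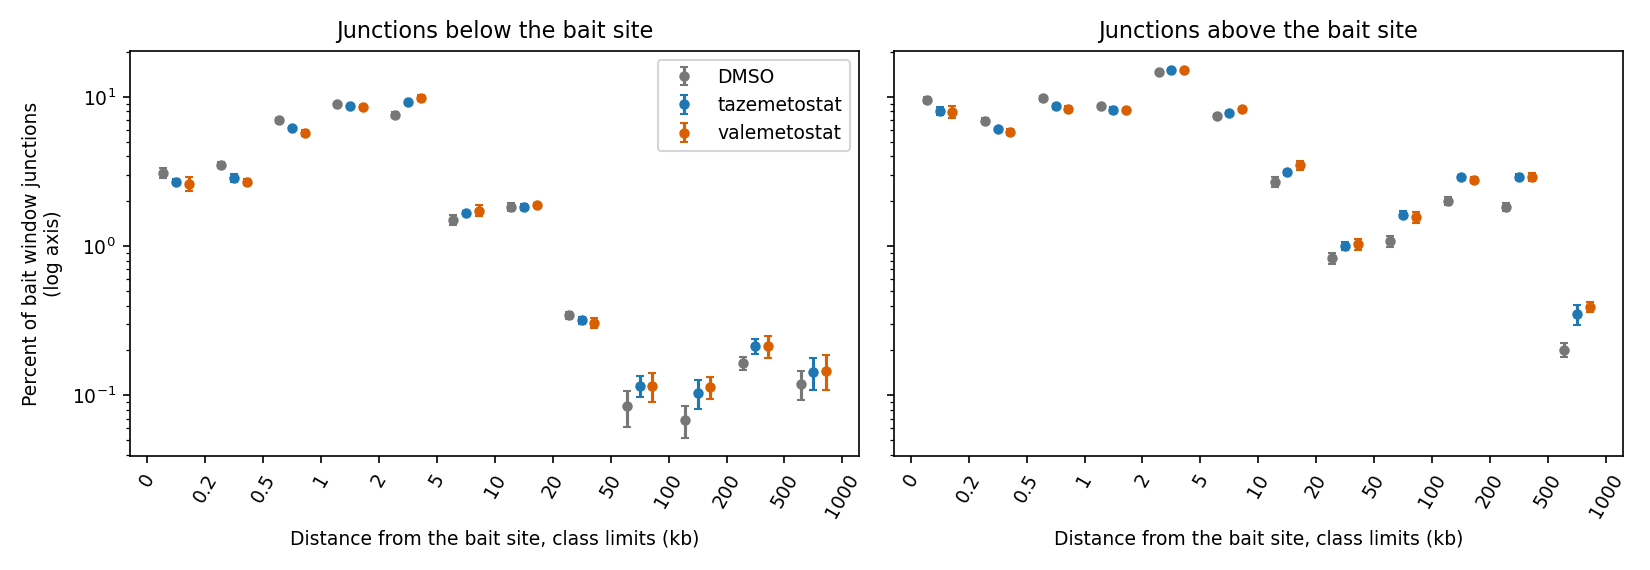
Percent of the bait window's junctions (vertical log axis) by distance class from the bait site in kb (horizontal axis), below and above the site. Points are means of 5 libraries and bars the SD. Tazemetostat and valemetostat run together, while from 50 kb outwards above the site DMSO is lower, with 1.82% at 200 to 500 kb against 2.90% with either compound.

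Across the genome, no window passed the threshold between the compounds after adjustment. Of 1465 windows of 1 Mb, 0 (0%) passed limma voom with Benjamini-Hochberg adjustment at 0.05, and of 466 windows of 100 kb also 0 (0%). At an unadjusted p under 0.05 there were 81 windows of 1 Mb (5.53%), 44 of them higher with valemetostat, and 29 of 100 kb (6.22%), 7 of them higher. Limma trend and quasi-Poisson regression also called 0 at either width. The median SE of a window's log2 ratio was 0.33 at 1 Mb and 0.50 at 100 kb, so most windows could pass only at a large change. The absence of calls thus does not show that the windows were alike. A window's fold is given per genome-wide junction, and the median log2 ratio of valemetostat to tazemetostat over all windows was -0.02 at 1 Mb and -0.04 at 100 kb. From the same fit, 4 windows of 1 Mb (0.273%) were called for valemetostat against DMSO and 8 (0.546%) for tazemetostat against DMSO, and 16 (3.43%) and 30 (6.44%) at 100 kb. These counts share their DMSO libraries and do not show that the compounds differ.

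The window with the smallest p at either width was in Igh. The 1 Mb of chromosome 12 that starts at 114000000 held 377 ± 36.1 junctions per 10000 genome-wide junctions with tazemetostat and 317 ± 24.2 with valemetostat, a log2 ratio of -0.25 (SE 0.06, limma voom, adjusted p = 0.195). At 100 kb the window that starts at 114500000 and holds the densest kb of alpha, gamma2b and gamma1 had a log2 ratio of -0.26 (SE 0.07, limma voom, adjusted p = 0.177). The next window, from 114600000, which holds mu and gamma3, had -0.21 (SE 0.09, limma voom, adjusted p = 0.584). The window before, from 114400000, into which the alpha part reaches, had -0.32 (SE 0.14, limma voom, adjusted p = 0.664). With all junctions as library size in place of genome-wide junctions, the Igh window was the only one called at 1 Mb, at a log2 ratio of -0.21 (limma voom, adjusted p = 0.000225). At 100 kb the window from 114500000 was the only one, at -0.22 (limma voom, adjusted p = 0.0241). Without tazemetostat replicate 4 the Igh window was likewise the only call at 1 Mb, at -0.30 (limma voom, adjusted p = 0.00154).

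Other windows with a small p are given as values without a call. Higher with valemetostat were 1 Mb of chromosome 9 from 111000000 (20 junctions with tazemetostat and 51 with valemetostat), of chromosome 7 from 85000000 (17 and 50), of chromosome 11 from 102000000 (24 and 58) and from 25000000 (32 and 65), and of chromosome 10 from 61000000 (38 and 63). Lower were chromosome 15 from 82000000 (352 and 291), chromosome 16 from 95000000 (59 and 39), chromosome 6 from 70000000 (144 and 111), which holds the Igk peak, and chromosome 1 from 135000000 (62 and 42). Apart from the Igh window, all of these had an adjusted p of 0.644 or 0.673 by limma voom.

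The window of chromosome 15 from 82000000 is the one with most junctions among them, Igh apart. It lies on the bait chromosome, whose junctions are not part of the genome-wide count used as denominator. At 100 kb, the stretch from 82000000 to 82100000 held 42.6 ± 3.62 junctions per 10000 genome-wide with tazemetostat, 31.1 ± 9.19 with valemetostat and 19.4 ± 3.85 with DMSO. The log2 ratio of valemetostat to tazemetostat was -0.48 (limma voom, adjusted p = 0.302), and those of valemetostat and of tazemetostat to DMSO were 0.69 and 1.16 (limma voom, adjusted p = 0.00815 and 2.25e-07). The files carry no gene names and no annotation of their build was used, so this window is given by its place only. The other 100 kb windows with a small p were lower on chromosome 7 from 51700000 (28 and 11 junctions), chromosome 15 from 64000000 (36 and 16) and chromosome 19 from 6200000 (29 and 12). They were higher on chromosome 14 from 32200000 (37 and 63), chromosome 15 from 79100000 (15 and 29), chromosome 8 from 35800000 (21 and 40), chromosome 17 from 32000000 (21 and 35) and chromosome 4 from 120600000 (7 and 23). Their adjusted p ran from 0.177 to 0.664 in limma voom.

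**Figure D4:**
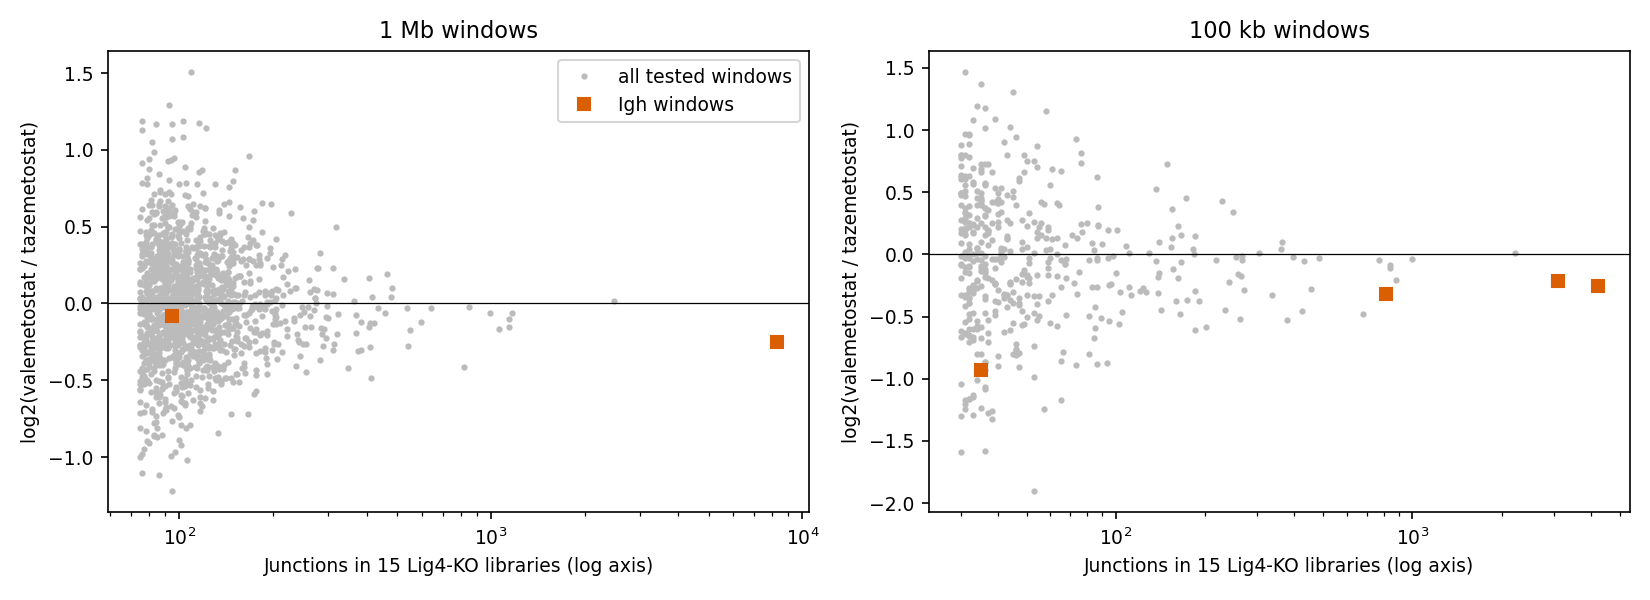
Log2 ratio of valemetostat to tazemetostat (vertical axis) against the junctions of a window in 15 libraries (horizontal log axis), for 1465 windows of 1 Mb and 466 of 100 kb. Each point is a window and squares mark Igh. The scatter narrows with depth, and the deepest window, in Igh at 1 Mb, lies at -0.25.

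Genes that AID attacks outside the immunoglobulin loci were followed as a list of 15 loci, placed on mm9 from general knowledge. Il4ra, Ebf1, Bach2 and Aff3 had 3 to 10 junctions in their densest kb, so no peak bore on where these were placed. The list held 2.22% ± 0.255 of genome-wide junctions with tazemetostat, 2.04% ± 0.214 with valemetostat and 1.68% ± 0.235 with DMSO, from 1571, 1562 and 1170 junctions. The difference between the compounds was -0.182 points and was given no test. Of the 15 loci 14 had 20 or more junctions over the 15 libraries. Il4ra, a receptor chain for IL-4, had 13. In 15 of 15 loci the valemetostat and tazemetostat libraries overlapped, and over all 466 windows of 100 kb 1.07% did not overlap.

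Each locus was followed through the 1 window of 100 kb that held most of its junctions. For Bach2 and for Aff3 that window had too few junctions to be tested. Of the 12 tested windows, which stand for the other 13 loci, 8 were lower and 4 higher with valemetostat and 0 were called, against 0% of all windows. A long locus such as Ebf1, of 413 kb, is covered only in part by its window. The densest kb of Pax5, at 44722000, lies outside the window that stands for it. Their median log2 ratio was -0.07, beside -0.04 over all 466 windows. Against DMSO, 1 of the 12 was called for valemetostat and 5 for tazemetostat (4 higher and, at Il4ra and Il21r, 1 lower), where 3.43% and 6.44% of all windows were called, and the difference between these counts was not tested.

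Pim1 and Nfkbia, among the 3 loci with the most junctions, overlapped widely between the compounds. Pim1 held 43.4, 38.1, 47.0, 38.2 and 41.3 junctions per 10000 genome-wide junctions in tazemetostat replicates 1 to 5 and 37.4, 45.6, 33.9, 37.7 and 44.4 in valemetostat replicates 1 to 5. Its junctions were tightly placed, with 86.3% within 2 kb of the densest kb, at 29628000 on chromosome 17. The window's log2 ratio was -0.08 (SE 0.13, limma voom, adjusted p = 0.940). Nfkbia held 37.9 ± 3.60 and 36.7 ± 5.94, beside 24.5 ± 6.57 with DMSO, and its window was called for valemetostat and for tazemetostat against DMSO at log2 ratios of 0.68 and 0.72 (limma voom, adjusted p = 0.00234 and 0.00138). Between the compounds the Nfkbia window had a log2 ratio of -0.04 (SE 0.14, limma voom, adjusted p = 0.975).

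Zfp36l1, Tnfaip3 and Mir155hg had lower means with valemetostat, within the spread of the libraries. Zfp36l1 held 46.6, 40.8, 49.1, 28.8 and 51.1 per 10000 in tazemetostat replicates 1 to 5 and 35.3, 39.1, 29.99, 39.98 and 37.6 in valemetostat replicates 1 to 5, so all but tazemetostat replicate 4 lay above the valemetostat libraries. Tnfaip3, a deubiquitinase that restrains NF-κB, held 25.3, 26.6, 27.6, 17.4 and 26.6 with tazemetostat and 22.6, 19.6, 13.04, 23.8 and 19.9 with valemetostat, where again tazemetostat replicate 4 was the one inside the valemetostat range. Mir155hg, the host gene of miR-155, held 14.3 ± 4.78 and 10.96 ± 5.28, beside 6.97 ± 1.77 with DMSO. The log2 ratios of their windows were -0.21, -0.28 and -0.44 (limma voom, adjusted p = 0.763, 0.706 and 0.679).

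Il21r, a receptor chain for IL-21, had its highest mean with DMSO. It held 9.22, 14.03, 11.5, 5.17 and 10.6 per 10000 in DMSO replicates 1 to 5, 6.32, 7.49, 3.45, 5.36 and 2.80 with tazemetostat and 4.94, 5.87, 7.17, 7.69 and 8.37 with valemetostat. The window, which it shares with Il4ra, had a log2 ratio of 0.45 between the compounds (SE 0.30, limma voom, adjusted p = 0.722), and of -0.54 for valemetostat and -0.99 for tazemetostat against DMSO (limma voom, adjusted p = 0.314 and 0.0190). The Il21r locus itself held 36 junctions with tazemetostat and 53 with valemetostat.

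At the loci not yet described, too, the libraries of the compounds overlapped at each. Mir17hg, the host gene of the miR-17 cluster, held 16.7 ± 2.72 per 10000 with tazemetostat and 15.9 ± 3.28 with valemetostat, and Cd83, an activation marker, 13.9 ± 3.20 and 14.4 ± 3.31. Ebf1 and Pax5, transcription factors of the B-cell programme, held 6.10 ± 1.15 and 6.62 ± 1.52, and 4.78 ± 3.32 and 5.23 ± 1.72. Cd74, the invariant chain of MHC class II, held 4.15 ± 1.52 and 3.20 ± 1.15. Bach2, a B-cell transcription factor, held 3.93 ± 1.66 and 2.98 ± 1.62, Aff3, a nuclear protein of lymphoid cells, 2.78 ± 1.74 and 2.79 ± 1.502, and Birc3, a ubiquitin ligase of NF-κB signalling, 2.15 ± 1.45 and 1.80 ± 1.42. In Ebf1, Bach2 and Aff3, 10.6, 17.4 and 7.04% of the junctions lay within 2 kb of the densest kb, and in Zfp36l1 80.7%. The stretches counted were 413, 369 and 509 kb long for Ebf1, Bach2 and Aff3 and 26 kb for Zfp36l1, so these percents are not like for like.

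The HoxA, HoxB and HoxD clusters, textbook targets of Polycomb repressive complex 2, held few junctions in any group. Together they held 0.0438% ± 0.0124 of genome-wide junctions with tazemetostat, 0.0379% ± 0.0124 with valemetostat and 0.0394% ± 0.0272 with DMSO, from 31, 29 and 28 junctions. The clusters did not go the same way, with 8 junctions with tazemetostat and 5 with valemetostat in HoxA, 20 and 14 in HoxB, and 3 and 10 in HoxD. At each cluster the libraries of the compounds overlapped. At each cluster the window of 100 kb with most of its junctions did not reach the tally needed for the test.

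**Figure D5:**
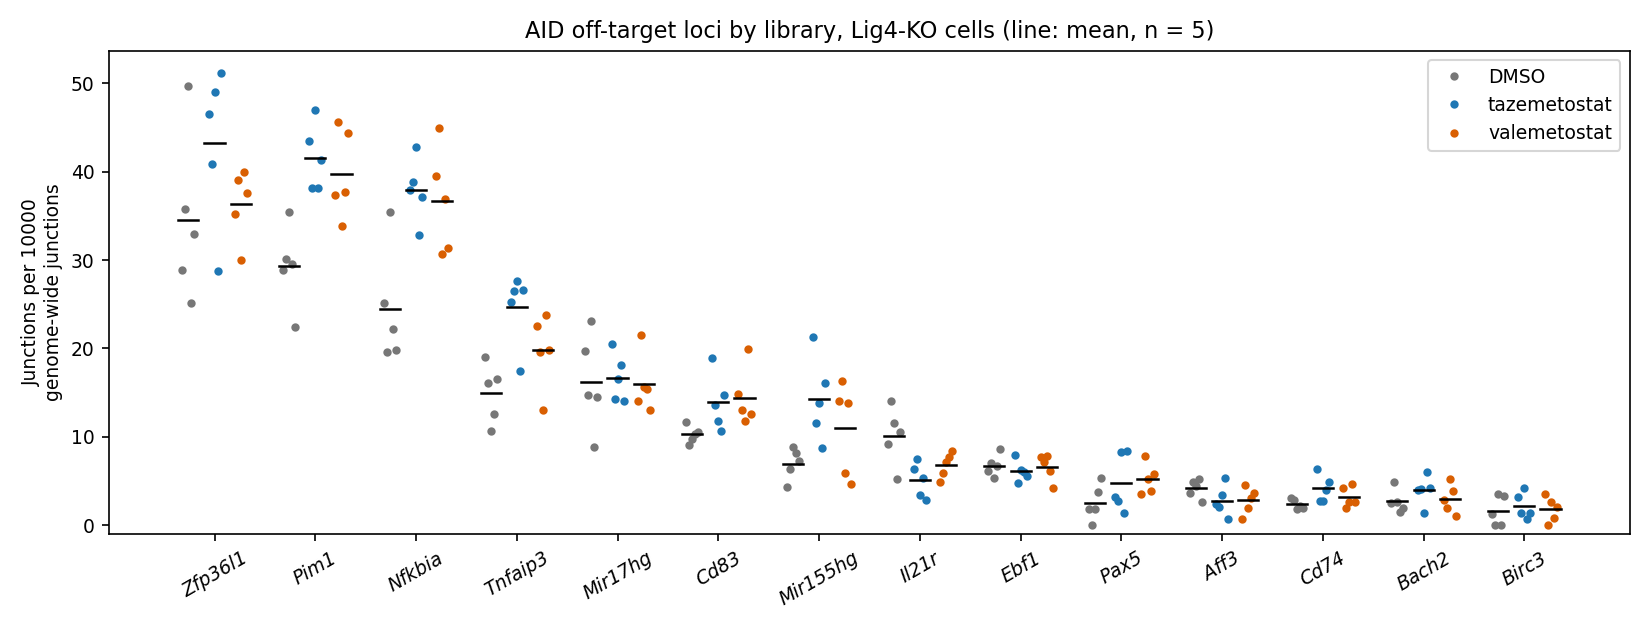
Junctions per 10000 genome-wide junctions (vertical axis) at the 14 AID off-target loci with 20 or more junctions (horizontal axis) in the 15 Lig4-KO libraries by treatment. Points are libraries and lines the mean of 5. Tazemetostat and valemetostat points overlap at every locus, and at Pim1 the means are 41.6 and 39.8 against 29.3 with DMSO.

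Chromosome by chromosome, no difference between the compounds in the division of genome-wide junctions passed. Over 19 chromosomes, 1 chromosome alone at the smallest possible p = 0.00794 (exact permutation test) would not pass after adjustment. The absence of a call thus does not show that the division was alike. Of the 19 chromosomes other than the bait chromosome and Y, 0 passed the exact permutation test after adjustment and 1 had an unadjusted p under 0.05. This was chromosome 2, with 6.66, 6.78, 7.18, 6.98 and 6.74% of genome-wide junctions in tazemetostat replicates 1 to 5 and 7.34, 7.09, 7.31, 6.97 and 7.36% in valemetostat replicates 1 to 5. The groups overlapped, and the difference of 0.345 points (95% interval 0.0595 to 0.628) had p = 0.0397 and an adjusted p = 0.603 in the exact permutation test. With DMSO chromosome 2 held 7.20% ± 0.0988.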

How the data were processed

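LAM-HTGTS libraries of CH12F3 cells were read as paired ends on a MiSeq, per the labels. The authors deposited 1 list per library with 1 line per junction (a position and strand on mm9, per the submitters' processing notes) and a score from 16 to 222, deposited without a stated meaning and used in no test. Aligner, junction caller and filters, not given in the sources used here, could each change the lists, and whether positions start at 0 or 1 is not stated. From these lists, junctions were counted per library in Python 3.11.15 (pandas 2.3.3, numpy 2.4.6). For shares, the exact permutation test was two-sided with 252 arrangements of the libraries, adjusted by Benjamini-Hochberg within each family, with 95% intervals from inverting the test. For windows, limma voom (3.58.1, under R 4.3.3) took all 15 Lig4-KO libraries, the library size being the genome-wide junctions, and windows needed on average 5 junctions per library at 1 Mb and 2 at 100 kb. Libraries held 35258 to 56900 junctions.

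The members and lists were chosen with earlier results of these data known. The compartments, Igh parts, distance classes and off-target loci with 20 or more junctions are all named, and of the windows those called, or else the 5 with the smallest p in each direction. Windows of the bait chromosome were tested too, though the library size leaves that chromosome out. The scripts were tested on simulated data with known differences. Alternatives covered identical junctions, thinning, scale, denominator, limits and widths, the test, the library size, the filter, the replicate number and each library left out in turn.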

Additional observations from a re-analysis of the deposited data

Results flagged for a closer look

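Of 120 groups of 5 libraries examined, 3 held a library that lay far from the others, where chance alone gives about 1 in 20. All 3 concerned tazemetostat replicate 4. Far above the bait it held 8.29% of the bait window's junctions, and the other tazemetostat libraries held 8.83 to 9.002%. Near above the bait it held 24.6%, with 22.2 to 22.9% in the others. At Tnfaip3 it held 17.4 junctions per 10000 genome-wide junctions, with 25.3 to 27.6 in the others. Without it the Igh difference between the compounds was -0.165 percentage points (exact permutation test, adjusted p = 0.0397), the difference in near above the bait was -0.331 points and that in far above -0.248 points (exact permutation test, adjusted p = 0.762 and 0.512).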

How the results depend on the processing

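The results were recomputed in 553 alternatives over 34 results. Of these 503 were rated the same. For a tested difference this means that direction and side of the threshold were kept. For counts of calls it means a like count, and for the untested lists of loci a change smaller than the SD. The Igh share, the only one of the 34 results that had passed, did not reverse. Where a value changed, the cause was not tested beyond what each alternative leaves out. In the Igh share the libraries of the compounds did not overlap, so the replicate block and leaving out 1 library could not turn its sign. With these included, the Igh share was lower with valemetostat in 19 of 19 alternatives. It passed at -0.239 points with identical junctions counted 1 time. It did not pass with the replicate block (-0.153 points, exact sign-flip permutation test, adjusted p = 0.156, where 5 pairs allow no p below 0.0625) or relative to the junctions outside the bait window (-0.495), and ran from -0.175 to -0.131 when 1 library was left out. The labels do not say whether libraries of the same number share a culture. The correlations of same-numbered tazemetostat and valemetostat libraries over 1465 windows ran from -0.0405 to 0.0153. At a median of 106 junctions per window over 15 libraries, they cannot show whether a replicate effect was absent. With the block, alpha and gamma2b per 10000 junctions did not pass either (adjusted p = 0.25 for both, exact sign-flip permutation test).

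Results that had not passed did so in 3 settings given in the report, and for alpha (-8.41) and gamma2b (-2.33) per 10000 junctions, a scale chosen after seeing the data. Leaving out 1 library gave light chains from -0.0249 to -0.0152 and middle below the bait from 0.507 to 0.813, and with identical junctions counted 1 time the latter was 0.437.

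Signs turned only in differences that had not passed. Per 10000 junctions the stretch between mu and alpha was -0.716 and upstream of mu -0.133. After thinning to 35258 junctions, mu was 0.943, upstream of mu -0.0121 and the strand distance in alpha -26.8 bp. The rest of the bait chromosome was -0.0476 with the other denominator. Far below was 0.0113 with limits of 2 and 50 kb and 0.0564 with 2 and 10 kb, and far above 0.234 with the latter. Leaving out 1 library gave ranges across 0 for the bait window (-1.50 to 0.0489), mu (-0.820 to 1.12), upstream (-0.0305 to 0.206), downstream (-0.481 to 0.0723), far below (-0.0339 to 0.0357), far above (-0.270 to 0.00978), the plus share in the bait window (-0.0759 to 0.311), and the strand distance in mu (-164 to 85.5 bp) and alpha (-31.0 to 61.5 bp).

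With all junctions as library size, 1 window was called lower at 1 Mb and 1 at 100 kb, and leaving out 1 library gave 0 to 1 at 1 Mb. With no filter on low tallies 3 windows of 100 kb were called lower and 3 higher, of which 4 rest on few junctions, such as 10 with tazemetostat and 0 with valemetostat. Depth limits values that rest on few junctions, such as upstream of mu with 37 and 36.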
